A study of Mus musculus with 12 samples.

Results

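Oligodendrocyte precursor nuclei were described in single-nucleus RNA sequencing of the mouse cortex at postnatal day 21. A barcode was taken as a member where it held at least 1 unique molecular identifier (UMI, a tag that marks 1 captured transcript) of Pdgfra and at least 2 of Vcan, and none of Dcn, Rbfox3, Slc17a7, Gad1 or Gad2, with no more than 12000 UMIs and no more than 1% mitochondrial UMIs. The rule took 301 of the 71914 barcodes within the UMI and mitochondrial limits, out of 78743 in all. No barcode was shared between libraries.

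Oligodendrocyte precursors are the dividing glia of the postnatal brain. They receive synaptic input from neurons and are kept cycling by PDGF acting on its receptor Pdgfra. As they commit to differentiation they lose Pdgfra and the NG2 proteoglycan Cspg4, pass through a stage that expresses Bcas1, Enpp6 and Gpr17, and then make myelin proteins such as Mbp and Mog. The transcription factors Olig1, Olig2 and Sox10 are carried through the whole lineage.

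The samples were 12 cortices, 6 from WT mice and 6 from mice heterozygous for a frameshift allele of the zinc finger gene Myt1l (Het, line MYT1L S710fsX), with 3 males and 3 females of each genotype, all aged 21 days. All animals had been injected as pups with AAV9 carrying calling-card reagents and a nuclear tdTomato reporter, so WT mice carried the virus too. Total UMIs per library ran from 23429386 to 59958572, and fixed nuclei of all animals went through the same plates. The Myt1l transcript was counted from both alleles and does not check the genotype labels. Neuronal nuclei were barcodes within the limits with any Rbfox3 UMI, or with at least 2 UMIs of Slc17a7, Gad1 and Gad2 together. In them the Myt1l transcript reached 935 ± 78.0 CPM in the WT animals (SD, n = 6; CPM stands for UMIs scaled to a library total of 1000000). The Het animals had 1031 ± 49.6 CPM (SD, n = 6), more than WT on average. When all relabellings of the animals were enumerated, the exact two-sided permutation p was 0.0325, without adjustment. Neuronal nuclei of all types were pooled for these values, and the mix of types was not compared between animals.

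The members came close to the lower edge of the deposited barcodes. Their median depth was 2369 UMIs and 1396 genes, against medians of 4496 to 6000 UMIs in the neuronal nuclei of the same animals. The smallest UMI total of any deposited barcode lay between 1502 and 2182 depending on the animal, and in the animals with at least 10 members the shallowest member stood 0 to 70 UMIs above that smallest total. Precursor nuclei below these totals were not among the barcodes analysed here.

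The values that chose the members spread from the minimum upwards. The median member held 2 Pdgfra UMIs and 5 Vcan UMIs, and 22 members stood at both minima. Just outside the rule were 47 barcodes with Pdgfra and only 1 Vcan UMI. Their pooled levels of 3212 CPM for Ptprz1 and 291 CPM for Cspg4 lay near the 3376 and 337 CPM of the members. A second group of 331 barcodes had at least 2 Vcan UMIs but no Pdgfra, and carried 3625 CPM of Bcas1 against 658 CPM in the members. A further 37 barcodes were kept out by Rbfox3 alone and 74 by a transmitter gene alone, and those with Rbfox3 held 9226 CPM of the neuronal RNA Meg3 against 924 CPM in the members.

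The label was checked against markers that the rule did not use. Levels are CPM of the UMIs summed over the members of an animal, in the 10 animals with at least 10 members, beside all other barcodes of the same animal. Of the 71613 other barcodes 60269 were neuronal nuclei. A ratio to them therefore sets precursors mainly against neurons and does not separate precursors from other glia. Because the rule picked the members by their own transcripts, these values are a description and were not tested. All 23 identity genes outside the rule had a pooled CPM more than 2 times that of the other barcodes (5 CPM added to both), against 8.74% of all genes with a count in the members. In 22 of the 23 the members were higher in each of the 10 animals, against 4.11% of the genes with a count. These shares depend on abundance, and among the 1436 more abundant genes later tested between genotypes they were 26.3% and 32.9%.

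Cspg4, the NG2 proteoglycan that defines these cells in tissue (chr9:56865033-56899870, mm10), ranged from 161 to 568 CPM with a median of 341 CPM, while its median in all other barcodes was 1.7 CPM. A Cspg4 UMI was found in 54.2% of members and 0.7% of neuronal nuclei. After each nucleus was thinned to 1500 UMIs the shares were 37.5% and 0.2%. Lhfpl3, a tetraspan membrane gene, was detected in 99.3% of members at a median of 8954 CPM. The lineage factors were less abundant, with Sox10 at a median of 151 CPM, Olig1 at 90.5 CPM and Olig2 at 58.5 CPM, and their medians in other barcodes were 3.3, 1.7 and 0.9 CPM. The label of oligodendrocyte precursors and these markers pointed the same way.

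The 15 genes with the highest ratio of members to other barcodes were Cspg4, Gm4876, Ptprz1, Sema3d, Calcrl, Gpc5, Ednrb, Emid1, Cacng4, Matn4, Bcan, Afap1l2, Stk32a, Zcchc24 and Itpr2. Cspg4, Ptprz1, Gpc5, Matn4 and Bcan encode components or receptors of the extracellular matrix. Ptprz1, a receptor phosphatase that carries chondroitin sulfate, had a median of 3559 CPM (range 2644 to 3780) against 63.4 CPM in other barcodes. The heparan sulfate proteoglycan Gpc5, which astrocytes also express, had a median of 5256 CPM against 138 CPM. Calcrl and Ednrb, receptors for calcitonin-family peptides and for endothelins, had medians of 392 and 260 CPM against 4.9 and 2.1 CPM. Cacng4, an auxiliary subunit of AMPA receptors, stood at 595 CPM against 14 CPM, and the secreted guidance cue Sema3d at 539 CPM against 8.0 CPM.

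Levels were then compared along the lineage. The newly formed gate (no Pdgfra, at least 1 UMI each of Enpp6 and Bcas1, no Mog) held 360 nuclei, the myelinating gate (no Pdgfra, at least 3 UMIs of Mog, Mag and Mobp together) held 1683, and 102 nuclei were in both. Of the 23 identity genes, 13 were higher in the members than in the newly formed gate in all 10 animals and 1 was lower in all 10, while 31.1% and 14.2% of the 1436 more abundant genes were higher and lower (3.54% and 2.91% of all genes with a count). The gene that was lower was Tnr, the matrix protein tenascin-R, with a median of 5980 CPM in members and 12017 CPM in newly formed nuclei. Sox6 and Bcan ran on into the newly formed gate, with medians of 2513 and 2351 CPM for Sox6, and of 479 and 550 CPM for Bcan, and both were lower in the myelinating gate at 71.9 and 61.9 CPM.

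**Figure D1:**
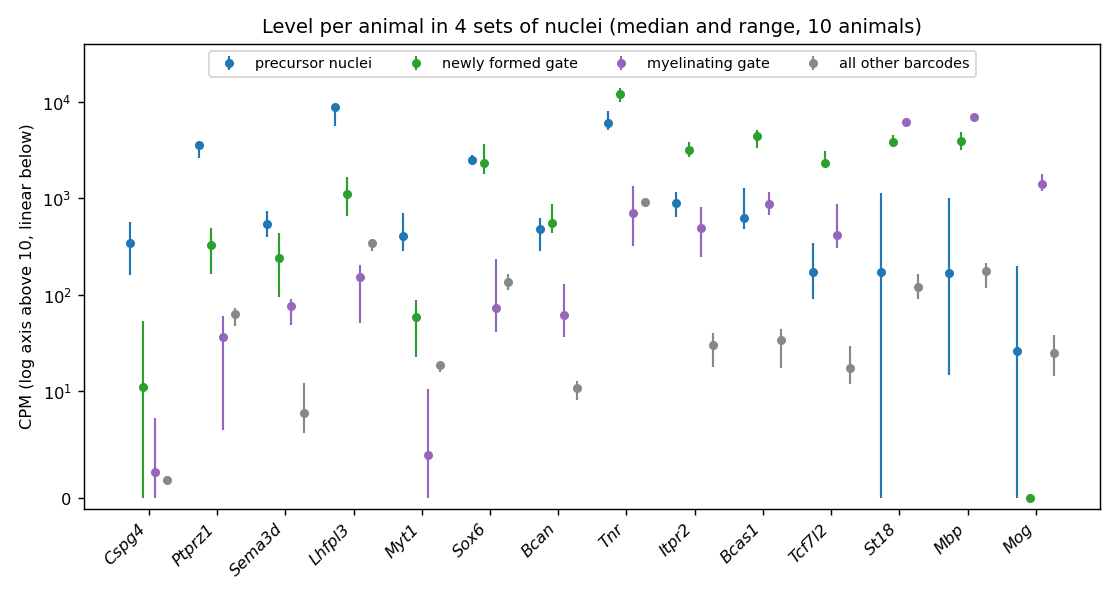
CPM of 14 genes in precursor nuclei, the newly formed gate, the myelinating gate and all other barcodes; points are medians and lines the lowest and highest of the 10 animals with at least 10 members, on an axis that is logarithmic above 10 CPM and linear below. Cspg4, Ptprz1, Lhfpl3 and Myt1 fell away after the precursor stage, Tnr was highest in newly formed nuclei, where the gate itself required Bcas1, and the ranges of St18, Mbp and Mog in precursor nuclei reached from near 0 to over 100 CPM.

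Genes of the next stage were present at lower levels. The gate of newly formed nuclei used Bcas1 and Enpp6, and of the 11 other genes of committed and newly formed oligodendrocytes 9 were below that gate in all 10 animals and 0 above it in all 10. Among the more abundant genes 14.2% were below and 31.1% above, and among all genes with a count 2.91% and 3.54%. Bcas1, which labels early myelin-forming cells, had a median of 620 CPM in members and 33.7 CPM in other barcodes, and 70.8% of members held a UMI of it. Itpr2, an intracellular calcium release channel, had a median of 896 CPM in members and 3187 CPM in newly formed nuclei. Gpr17, a receptor of the transition stage, ranged from 41.0 to 262 CPM in members.

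Myelin transcripts were scarce and uneven. Mbp ranged from 14.6 to 1010 CPM between animals and was detected in 11.6% of members and 20.7% of the deeper neuronal nuclei. After thinning to 1500 UMIs the shares were 9.3% and 6.9%. Mog was found in 3.0% of members. Some UMI of Mog, Mag or Mobp was present in 14 of the 301 members, and 10 members held at least 3. The galactolipid enzyme gene Ugt8a was more widespread, with a median of 288 CPM and a UMI in 44.5% of members against 2.7% of neuronal nuclei.

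The 3 genes of the Myt1 family, zinc finger repressors that include the gene mutated in the Het mice, had different patterns. Myt1 (chr2:181763332-181827797, mm10) had a median of 405 CPM in members, 59.2 CPM in newly formed nuclei and 18.7 CPM in other barcodes, and 63.8% of members held a UMI. Myt1l, the neuronal member, had a median of 199 CPM in members against 995 CPM in other barcodes, with a UMI in 36.2% of members and 95.4% of neuronal nuclei. St18 rose along the lineage, with a median of 170 CPM in members, 3868 CPM in newly formed nuclei and 6217 CPM in the myelinating gate. Only 6.0% of members held a St18 UMI, and its animal values ran from 0 to 1146 CPM.

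Among 27 transcription factors of the lineage, 15 had more than 2 times the pooled CPM of other barcodes, beside 26.3% of the more abundant genes and 8.74% of all genes with a count. Sox5 and Sox6, which hold precursors in the undifferentiated state, had medians of 1656 and 2513 CPM. The glial factor Nfia had a median of 906 CPM and was above the newly formed gate in all 10 animals. Tcf7l2, a Wnt effector of differentiation, had a median of 174 CPM, below the newly formed gate in all 10.

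Erbb4, a neuregulin receptor, had a median of 5902 CPM and a UMI in 99.7% of members. Of 21 glutamate receptor genes, 5 had more than 2 times and 7 less than 0.5 times the level of other barcodes. Over 2 times lay 26.3% of the more abundant genes, near the share of the glutamate receptors. Under 0.5 times lay 8.98% of the more abundant genes and 6.23% of all genes with a count. The NMDA subunit Grin3a had a median of 597 CPM with a UMI in 72.1% of members and 11.5% of neuronal nuclei. For GABA receptors, 9 of 14 genes were below 0.5 times other barcodes, and 7 of the 14 were above the newly formed gate in all 10 animals, beside the 31.1% of the more abundant genes. The same count for ion channels was 16 of 25, among them the A-type potassium channel Kcnd2 at a median of 5247 CPM.

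Adhesion and guidance genes had the highest summed CPM of the lists. Lsamp, a cell adhesion molecule of the IgLON family, had a median of 20069 CPM in members, and 24 of the 47 genes were above the other barcodes in all 10 animals, beside 32.9% of the more abundant genes. Under 0.5 times the other barcodes were 12 of the 47, beside 8.98% of the more abundant genes and 6.23% of all genes with a count. In the Notch pathway, Maml2, a coactivator of Notch, had a median of 1898 CPM, and Notch1 had 78.3 CPM against 1.9 CPM in other barcodes. Rnf43, a ubiquitin ligase that restrains Wnt receptors, had a median of 233 CPM.

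Markers of other cell types were measured in the same sums. Of 13 neuronal transcripts outside the rule, 12 were below 0.5 times other barcodes, beside 8.98% of the more abundant genes and 6.23% of all genes with a count. The rule shut out nuclei with neuronal genes and most other barcodes were neuronal, so this count followed from the choice of members. The summed neuronal list stood at 6950 to 9505 CPM in WT and 6174 to 8118 CPM in Het. All 13 astrocyte genes had a count in members, led by Gpc5, and Slc1a3, a glutamate transporter, ranged from 161 to 1004 CPM. The summed microglial list ran from 53.8 to 730 CPM in WT and from 55.1 to 1041 CPM in Het. Fibroblast genes summed to at most 125 CPM and endothelial and mural genes to at most 72.4 CPM, and Cldn5 and Col3a1 had no count in members. The part of nuclei of other types in these sums was not tested.

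Some members carried transcripts of dividing cells. Top2a, which untangles chromosomes at mitosis, had a pooled level of 88.5 CPM in members and 1.1 CPM in other barcodes, and Mki67, a marker of cycling cells, had 55.3 and 1.7 CPM. At least 2 UMIs of the 25-gene cell cycle list were found in 56 members, or 18.6%, against 6.4% of the deeper neuronal nuclei. The list includes Diaph3 and Ezh2, which are not limited to dividing cells. With a limit of 10 UMIs, chosen after the values were seen, 17 members (5.65%) and 0.0415% of neuronal nuclei remained, and the highest member held 53.3 UMIs. Those 17 members came from 9 animals, with 0 or 1 in each WT animal and 1 to 6 in each Het animal. They were 3 of the 102 WT members (2.94%) and 14 of the 199 Het members (7.04%). Het female 3, with 55 members, supplied 6, and WT female 3, with 4 members, supplied 1. At this limit the genotypes were not tested.

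The comparison of genotypes asked whether the members were in different states. In WT the share of members with at least 2 cell cycle UMIs ran from 3.85% to 25.0% with a median of 10.2% (n = 4), and in Het from 12% to 27.3% with a median of 19.1% (n = 6). The groups overlapped, and Het exceeded WT by 6.71 percentage points, within the spread between animals (exact permutation over animals, p = 0.171, adjusted over 2 states 0.343). The call turned on small changes, with an exact permutation p of 0.0357 without WT female 1 and of 0.0476 with a limit of 3 UMIs, while a limit of 1 UMI reversed the direction (-6.76 points), as did the use of all 12 animals at the limit of 2 UMIs (-8.62 points). The 12 animals include WT male 1, where 2 of 3 members reached 2 UMIs, and WT female 3, where 2 of 4 did. The share with at least 2 UMIs of Bmp4, Gpr17, Bcas1, Enpp6 and Neu4 together was 55.3% ± 7.27 in the WT animals (SD, n = 4). It was 56.4% ± 15.6 among Het animals (SD, n = 6), and this comparison did not pass either (exact permutation p = 0.910). Bcas1 was detected in 70.8% of members, and Gpr17, Neu4, Bmp4 and Enpp6 in 24.6%, 18.9%, 2.7% and 2.0%.

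**Figure D2:**
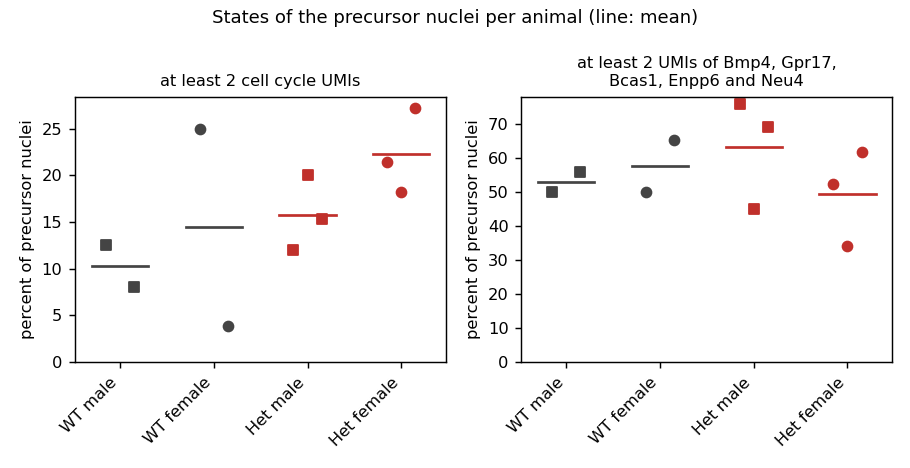
Percent of precursor nuclei in each of 10 animals with at least 2 cell cycle UMIs (left) and with at least 2 UMIs of Bmp4, Gpr17, Bcas1, Enpp6 and Neu4 (right); points are animals and lines group means. The WT animals spread from 3.85% to 25.0% on the left and overlap the Het animals, and the right panel shows no ordering by genotype.

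The share of precursor nuclei among barcodes was compared next. In WT it ran from 0.0635% to 0.532% with a median of 0.363% (n = 6), and in Het from 0.225% to 0.777% with a median of 0.494% (n = 6). The highest values were those of the 3 Het females, at 0.548%, 0.759% and 0.777%. The lowest were WT male 1, with 3 members (0.0789%, exact 95% interval 0.0163% to 0.230%), and WT female 3, with 4 members (0.0635%, exact 95% interval 0.0173% to 0.162%), both intervals covering counting error only. These libraries were also low in glia generally, with 1.05% and 1.22% of barcodes in the 4 glial gates against 2.31% to 4.90% in the others.

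Het exceeded WT by 0.192 percentage points, a difference within the spread between animals (exact permutation over the 12 animals, p = 0.162, adjusted over 4 glial gates 0.193). Without the 2 low libraries the difference was 0.0701 points (exact permutation p = 0.571). Counting only barcodes at or above 2182 UMIs, the highest of the 12 lower edges, it was 0.0904 points (exact permutation p = 0.323). Under the study's limits on UMIs and genes per nucleus it was 0.289 points (exact permutation p = 0.275). Those limits kept 298 of the 301 members but only 39250 of the 71914 barcodes. The shares of both genotypes were therefore taken of a smaller total, and the points are not on the same scale as 0.192. The astrocyte gate (no Pdgfra, at least 2 UMIs of Aqp4 and Gja1 together) held 78 nuclei, and it also carried 1411 CPM of the fibroblast gene Bnc2 in its pooled counts. Newly formed, myelinating and astrocyte gates were higher in Het on average as well, by 0.173, 0.702 and 0.0868 points, and did not pass the test either. The Het difference was 0.334 points in females and 0.0486 points in males, and these did not differ when sex labels were permuted exactly within genotype (p = 0.260).

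**Figure D3:**
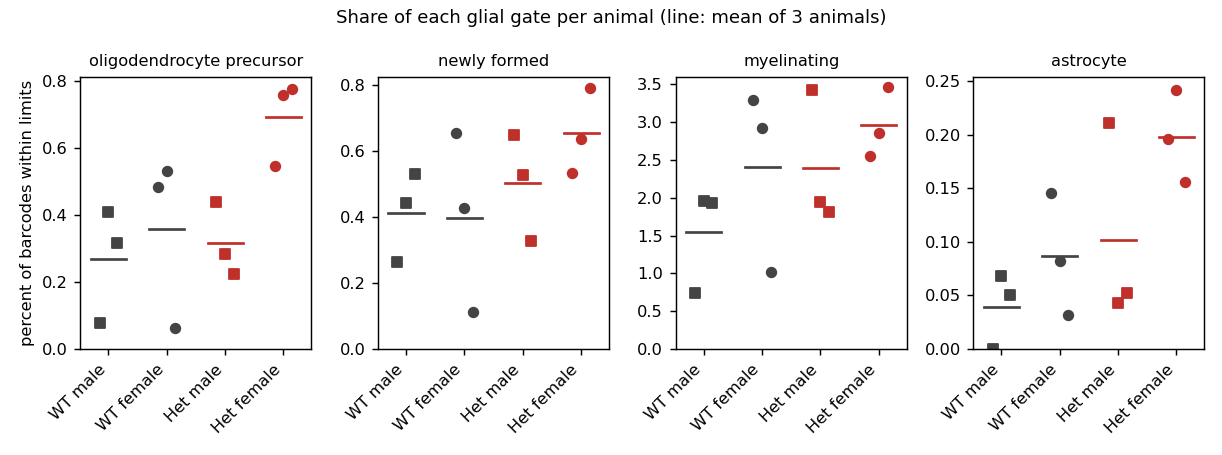
Share of barcodes within the limits in each glial gate for the 12 animals, grouped by genotype and sex; squares are males, circles females and lines the mean of 3 animals. WT male 1 and WT female 3 are low in the precursor gate at 0.0789% and 0.0635%, and the Het females are the highest at 0.548% to 0.777%.

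Gene expression was compared between genotypes on counts summed per animal over the members, in the 4 WT and 6 Het animals with at least 10 members. No gene of 1436 tested was called (0% of genes, with a call needing adjusted p < 0.05 and a log2 change beyond 0.2 in either direction, edgeR quasi-likelihood test with Benjamini-Hochberg adjustment), and DESeq2 called 0 as well. An unadjusted p under 0.05 was found for 55 genes by edgeR (3.83%) and for 30 by DESeq2, and the smallest adjusted p of edgeR was 0.984. The median log2 fold change of all tested genes was -0.01, the median standard error was 0.27, and the 95% interval lay within a log2 fold change of 1 either way for 1201 genes (83.6%). For most genes the intervals did not exclude changes well under that size, and the detection of such changes was not tested. Members of 1 animal summed to between 33575 and 133658 UMIs.

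The genes with the smallest p that were higher in Het were Gigyf2, Pdlim5, Tmem108, Fbn2 and Bcan. None passed the adjustment over all genes (edgeR, adjusted p = 0.984 for each). Bcan, the perineuronal matrix proteoglycan brevican (chr3:87987531-88000230, mm10), measured 424, 284, 412 and 364 CPM in the 4 WT animals. In Het it ranged from 469 to 629 CPM with a median of 556 CPM. All 6 Het animals lay above all 4 WT animals, which was so for 6 of the genes tested (0.418%). A gene without any difference separates this way in 1 of the 210 labellings of the 10 animals, which is near the share found. The log2 fold change of Bcan was 0.54 (SE 0.20). Pdlim5, a scaffold of the actin cytoskeleton, also had no overlap, with 42.7 to 131 CPM in WT and 139 to 252 CPM in Het. That gap was smaller than 1 UMI in WT female 2, the highest WT animal, where 1 UMI made 14.6 CPM.

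The genes with the smallest p that were lower in Het were Atp2b1, Syt1, Edil3, Pcdh9 and Fars2, and again none passed (edgeR, adjusted p = 0.984 for each). Atp2b1, a plasma membrane calcium pump, measured 219, 228, 215 and 291 CPM in the WT animals and 55.1 to 209 CPM in Het, with a median of 138 CPM. All 6 Het animals lay below all 4 WT animals, which was so for 5 of the genes tested (0.348%), again near 1 in 210. The gap was smaller than 1 UMI in WT female 1, the lowest WT animal, where 1 UMI made 17.9 CPM. The log2 fold change of Atp2b1 was -0.89 (SE 0.30). It was -0.54 with the replicate number as a block and -1.29 with all 12 animals. Syt1, the calcium sensor of synaptic vesicles, measured 597 CPM in WT male 3 and 150 to 215 CPM in the other WT animals. Its log2 fold change of -1.07 became -0.40 without WT male 3, -0.65 under the study's limits on UMIs and genes per nucleus and -2.28 with all 12 animals. It was -2.03 in males alone and -0.31 in females alone, and the difference between the sexes did not pass (edgeR interaction, adjusted p = 0.941). The log2 fold change of Pcdh9, a protocadherin, was -0.33 (SE 0.11). It was -0.21 without WT male 3, -0.11 without the myelin-bearing members, -0.11 without the members of highest Scrublet score and -0.11 with all 12 animals. Atp2b1 and Syt1 are abundant in neurons, at 748 and 3616 CPM in the pooled neuronal nuclei. The summed neuronal list, which includes Syt1, had a median of 7870 CPM in WT and 7469 CPM in Het. The part of neuronal RNA in the Atp2b1 and Syt1 values was not tested.

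**Figure D4:**
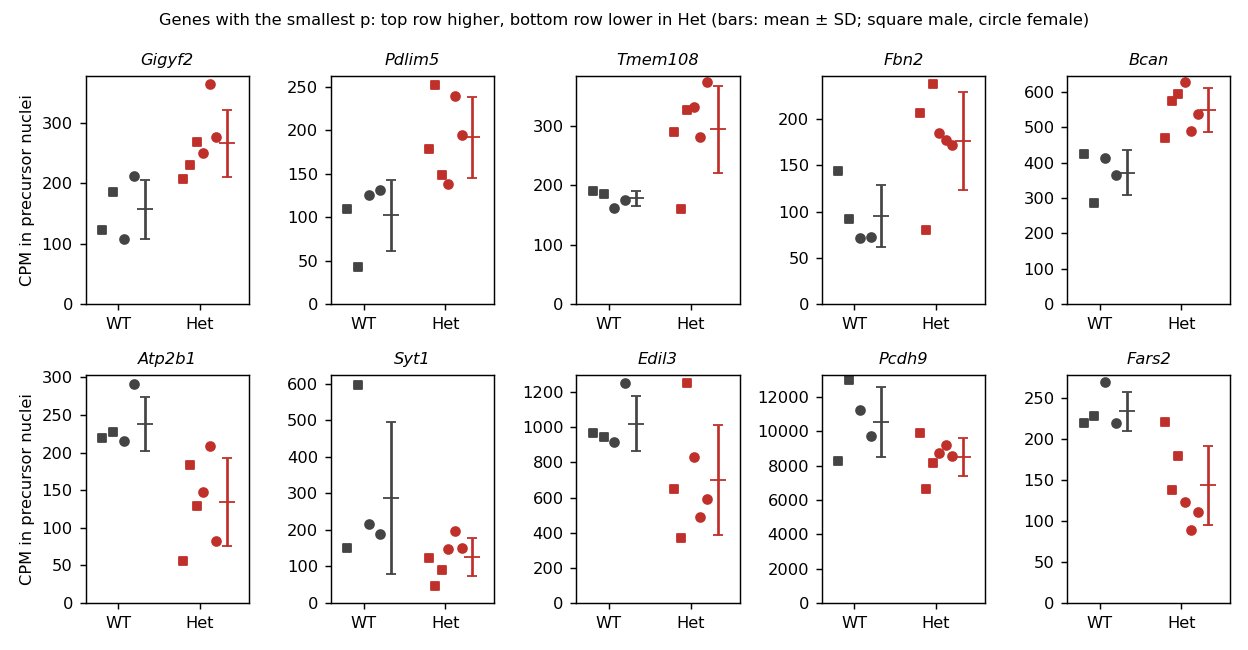
CPM in precursor nuclei for the 5 genes with the smallest p in each direction; points are animals (squares male, circles female), bars mean ± SD, with 4 WT and 6 Het animals. Bcan, Pdlim5 and Atp2b1 show no overlap between genotypes, and the high WT point of Syt1 is the 597 CPM of WT male 3.

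Of the 23 identity genes outside the rule, 17 were tested and 0 called, with log2 fold changes from -0.38 to 0.87 and a median of 0.00, against -0.01 over all genes. The highest was that of Gpr17, which also stood in the list of committed cells, at 0.87 (95% interval 0.03 to 1.71, unadjusted p = 0.043, edgeR adjusted p = 0.984). The other 16 ran from -0.38 to 0.16. Ptprz1 had a log2 fold change of 0.07 (95% interval -0.16 to 0.30), Lhfpl3 0.05 (-0.17 to 0.26) and Sox6 -0.06 (-0.29 to 0.17), so changes beyond these bounds were outside the intervals. Cspg4 had -0.38 (-0.87 to 0.11), a wider interval. The Myt1 family was likewise not called, with Myt1 at -0.11 (-0.54 to 0.33), Myt1l at -0.19 (-0.75 to 0.36) and St18 at -0.79 (-3.45 to 1.87).

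Across all lists, 142 genes outside the rule were tested, 0 were called and 7 had an unadjusted p under 0.05, with a median log2 fold change of -0.04. The 6 GABA receptor genes tested were all lower in Het on average, with a median of -0.41, where 748 of the 1436 tested genes (52.1%) were lower, and Gabrb1 had the smallest p (unadjusted 0.031, edgeR adjusted p = 0.984). Of the 6 neuronal transcripts tested 5 were also lower, with a median of -0.16, and the part of neuronal RNA in the GABA receptor values was not tested. Of 35 adhesion genes 16 were positive and 19 negative. The 18 ion channel genes had a median of 0.07 and the 12 glutamate receptor genes -0.01. The 4 tested genes of the myelin list were all lower in Het, from -0.79 to -0.10 with a median of -0.52. The 4 tested astrocyte genes were all lower too, with a median of -0.26. In both lists 0 genes had an unadjusted edgeR p under 0.05. Only 1 cell cycle gene, Diaph3, was abundant enough to be tested, and the summed list ran from 160 to 735 CPM in WT and from 531 to 1457 CPM in Het.

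**Figure D5:**
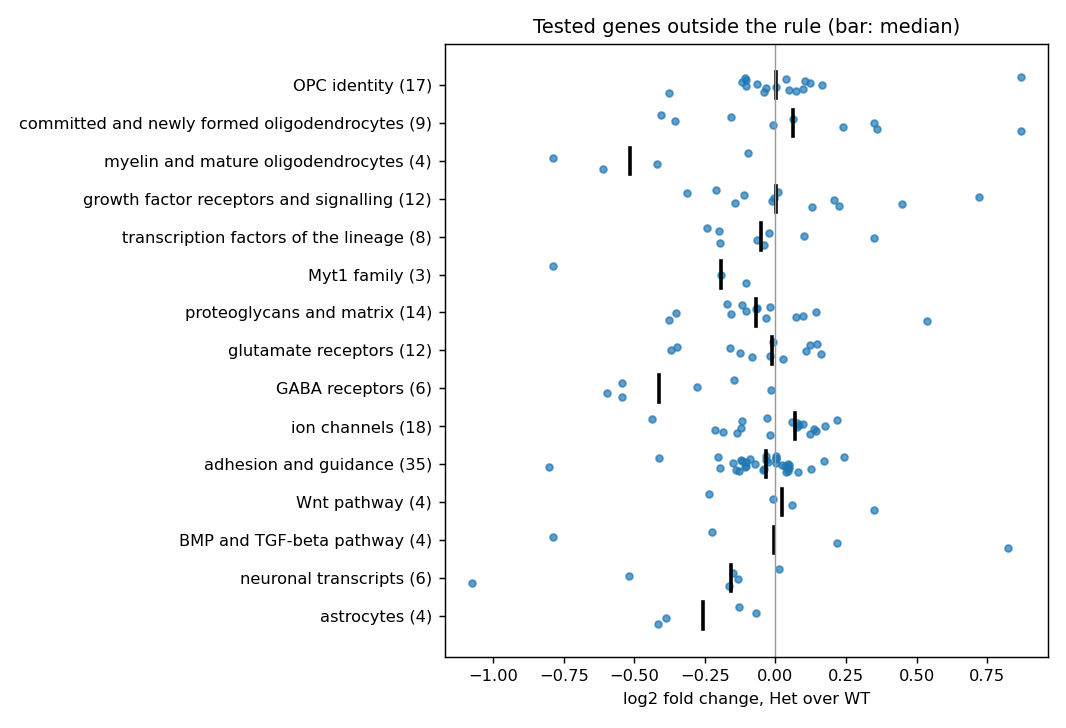
Log2 fold change, Het over WT, of every tested gene outside the rule, in the lists with at least 3 such genes (number in brackets); each point is a gene and each bar the median of its list. The medians of the identity, ion channel and adhesion lists lie at 0.00, 0.07 and -0.03. The lowest median is that of the myelin list, at -0.52 over 4 genes. None of the genes passed the adjusted threshold.

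The effect of genotype was also compared between the sexes. The interaction of sex and genotype was called for 0 of 1436 genes by edgeR (60 with an unadjusted p under 0.05) and for 0 by DESeq2 (25 with an unadjusted p under 0.05). WT had 2 males and 2 females in this fit.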

How the data were processed

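The authors mapped reads to mm10 and counted UMIs per gene and nucleus with ScaleRna, and called nuclei with its CellFinder. The deposited values are expected counts, not normalized, of which 92.6% were whole within 1e-06, since a UMI fitting several genes is divided among them. The authors removed multiplets with DoubletFinder in their own analysis, but the deposited barcodes exceed their UMI limit, so whether that applies here is not known, and a Scrublet filter (scanpy 1.11.5) was an alternative. Counts were summed over the members of each animal, rounded, and tested with edgeR 4.0.16 (TMM, filterByExpr, robust quasi-likelihood) on genotype, leaving out animals with under 10 members (WT male 1 and WT female 3). TDTOMATO entered neither library sizes nor tests. DESeq2 1.42.0 was an alternative. Shares were compared by exact permutation over animals, with Benjamini-Hochberg adjustment. Counts were also simulated for this comparison, with 86 of the 1297 genes tested changed by a log2 of 1 and 76 by 2. Of these edgeR recovered 75.6% and 100%, with 10 false calls. The adjustment is stricter where fewer genes change, which was not simulated. These shares are therefore not the chance of finding a single changed gene in the measured counts. Members, gene lists and gates were chosen with earlier results of these data known. Genes named were up to 6 per list by level or p, the 5 with the smallest p per direction, the 15 with the highest ratio to other barcodes, the rule genes and the Myt1 family; Sox10, Olig1, Olig2, Tcf7l2, Rnf43, Grin3a, Cldn5 and Col3a1 were added as markers after values were seen. Of 55336 features, 54587 had a position in GENCODE M21. Some genes of the lists are not reported here. Replicates are separate animals.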

Additional observations from a re-analysis of the deposited data

Results flagged for a closer look

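A set of 56 groups of 4 or 6 animals was searched for an animal far from the rest, and chance alone flags about 1 in 20 groups. In WT, WT female 2 stood apart for Atp2b1 (291 CPM) and Edil3 (1252 CPM), and WT male 3 for Syt1 (597 CPM). In Het, Het male 1 stood apart for Ptprz1 (low, 2879 CPM), St18 (868 CPM) and Bcas1 (1282 CPM). The reporter transcript TDTOMATO, which no comparison used, gave 10 counts in 8 of the 301 members (12.8 CPM). That is above the 3 counts that a count of 0 allows, and the pooled neuronal nuclei had 278 CPM. The part of neuronal RNA in the 10 counts was not tested.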

How the results depend on the processing

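Expression gave 0 called genes in every alternative run, among them DESeq2, other size factors and filters, looser and stricter rules, removal of high Scrublet scores or of myelin-bearing members, and all 12 animals. The 5 genes with the smallest p in each direction had the same direction in every alternative in which they were tested. The difference in precursor share was positive in every alternative and passed the threshold in none. In the single-sex alternatives, of 3 against 3 animals, no value could pass, since the smallest exact permutation p is 0.1, which the females gave (0.334 points). The share of cycling members was less stable. It was -6.76 points with a limit of 1 UMI, -1.70 with a limit of 1 UMI after thinning to 1500 UMIs, -8.62 with all 12 animals and 7.16 with a limit of 3 UMIs (exact permutation p = 0.0476), and between 3.88 and 10.9 when each animal was left out. The share of differentiating members, 1.07 points, was -0.0883 with a limit of 1 UMI, -4.09 with all 12 animals, and between -2.84 and 5.54 when each animal was left out. The cause was not tested. The common lower edge, the 12-animal and the single-sex alternatives, and the share without the 2 low libraries, were chosen after seeing the data, and the first moved the precursor share difference from 0.192 to 0.0904 points.

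Same-numbered animals of a sex did not pair, with correlations of their deviations of 0.12, 0.16, 0.10 and -0.09. With the replicate number as a block, edgeR called 0 genes (60 with an unadjusted p under 0.05), the log2 fold change of Atp2b1 moved from -0.89 to -0.54, the precursor share differed by 0.192 points (exact sign-flip permutation p = 0.219), the cycling share by 6.41 points and the differentiating share by -5.17 points. With 301 members, depth limits the test to abundant transcripts.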
